A study of Homo sapiens with 24 samples.

Results

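The genes described here are 10 members of the CREB and ATF family and its circuit, namely CREB1, CREM, ATF1, ATF2, ATF4, ATF5, ATF6, CREB3, CREB5, and the coactivator gene CRTC2. They were chosen by name, from 20098 protein-coding genes of GENCODE 44 in hg19 (GRCh37) coordinates, and all 10 were found in that annotation. The question was where S100A8 and S100A9, secreted calcium-binding cytokines that can also enter the nucleus, associate with these genes in chromatin, and whether this differs between nontransformed and transformed cells. MCF-10A is a nontransformed human breast epithelial line, and the derivative used here carries ER-Src, v-Src fused to the hormone-binding domain of the estrogen receptor. These cells stably expressed S100A8-Flag or S100A9-Flag from an integrated retroviral vector, so that in every library the chromatin came from cells with ER-Src and with a constitutively expressed tagged protein. Treatment lasted 24 hours and consisted of 4-hydroxytamoxifen at 1 μM (TAM), which activates v-Src and induces transformation, or of ethanol as the vehicle (EtOH). Flag ChIP gave 11 libraries that the labels call biological replicates, with 2 of S100A8 in EtOH, 3 of S100A8 in TAM, 3 of S100A9 in EtOH, and 3 of S100A9 in TAM. The labels do not say whether a Flag line is a pool or 1 clone. No expression data were analyzed here, so the values below concern peaks at these genes, not the levels of their products.

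CREB and ATF proteins are basic leucine zipper factors that bind DNA as dimers, and their classic site is the cAMP response element (CRE), the palindrome TGACGTCA. CREB1, CREM, and ATF1 are activated by phosphorylation when cAMP or calcium rises, and CRTC2 then enters the nucleus to help them. ATF2 and CREB5 pair with JUN, ATF4 and ATF5 act in the integrated stress response, and ATF6 and CREB3 are made as membrane proteins of the endoplasmic reticulum whose cytoplasmic parts are released by cleavage. Several of these genes are known to be controlled by the factors they encode, which makes sequences at their own promoters of interest.

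The following sequences are from hg19, each on the plus strand, which is the strand of these genes, and 101 bp long. Most are centered on the summit of the highest-ranked peak of a site, and a site is a region with peaks in at least 2 replicates of a condition. Capitals mark matches to letters that were searched for on both strands, namely the CRE, the shorter element TGACG that forms each arm of a CRE, the AP-1 site TGACTCA, the composite C/EBP-ATF element TGATGCAA, the ETS site CGGAAG, and the KLF/SP1 site CCCCGCCC. A TGACG match can lie inside a CRE, and no other pair of these motifs contains one another. The promoters of ATF6 and CREB3 are shown because they had peaks in more libraries than those of the other 8 genes. Those of CREB1 and ATF4 are shown as promoters of a cAMP factor and a stress factor, whose sites had a peak in all 6 TAM libraries. At the ATF4 site, the summit fell within the promoter window in 5 of them.
ATF6 site 6, chr1:161735992-161736092: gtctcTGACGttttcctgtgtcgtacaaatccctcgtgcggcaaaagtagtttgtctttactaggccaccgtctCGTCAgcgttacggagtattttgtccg
CREB3 site 3, chr9:35732517-35732617: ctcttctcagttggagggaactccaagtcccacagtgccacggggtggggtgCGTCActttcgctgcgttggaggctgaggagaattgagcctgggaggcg
CREB1 site 1, chr2:208394517-208394617: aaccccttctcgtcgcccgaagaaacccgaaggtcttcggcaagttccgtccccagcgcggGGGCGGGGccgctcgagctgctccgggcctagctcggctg
ATF4 site 2, chr22:39916494-39916594: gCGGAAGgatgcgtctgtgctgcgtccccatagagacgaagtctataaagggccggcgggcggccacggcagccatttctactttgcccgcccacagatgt

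The next sequences cover the CREs that lie within the promoter windows of these genes, followed by a CREB5 promoter site with an AP-1 match and a CREB5 intronic site with the C/EBP-ATF element. The CRE windows are placed on the motif and not on a summit.
CREM internal promoter, chr10:35484734-35484834: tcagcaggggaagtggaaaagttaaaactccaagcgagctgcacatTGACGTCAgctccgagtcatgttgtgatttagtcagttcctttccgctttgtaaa
CREB5 internal promoter, chr7:28448881-28448981: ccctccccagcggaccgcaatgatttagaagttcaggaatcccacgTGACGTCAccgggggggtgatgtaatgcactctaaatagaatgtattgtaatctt
CREB5 site 3, chr7:28448634-28448734: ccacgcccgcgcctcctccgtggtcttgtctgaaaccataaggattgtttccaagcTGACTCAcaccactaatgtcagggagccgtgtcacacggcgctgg
CREB5 site 2, chr7:28445423-28445523: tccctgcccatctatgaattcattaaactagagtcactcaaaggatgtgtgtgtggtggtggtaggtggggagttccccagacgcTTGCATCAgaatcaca

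The last sequence is the site of ATF5 with the most calls, where the capitals mark a match to the consensus of the insulator protein CTCF.
ATF5 site 2, chr19:50441051-50441151: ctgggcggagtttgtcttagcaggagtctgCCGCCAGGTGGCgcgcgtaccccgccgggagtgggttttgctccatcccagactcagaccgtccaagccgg

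A peak was used here when its q value was at most 1e-07, and it was assigned to a gene when its summit lay in the gene body or within 50 kb of it. Each EtOH library had 1853 to 4609 such peaks in all, and each TAM library had 21518 to 40735, so that every gene is viewed against a several-fold rise in the size of the lists. The lists carry no read numbers. Depth is thus unknown, and more binding cannot be told apart from more reads. The 10 genes had 363 such peaks in the 11 libraries. All 10 genes had a peak in each TAM library, and between 3 and 7 of them had one in each EtOH library. Of all protein-coding genes, 78.3 to 88.9% had a peak in a TAM library and 20.5 to 39.4% in an EtOH library.

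Among the cAMP-responsive factors, CREB1 had more peaks in TAM. It had 0 and 1 peaks in the S100A8 EtOH libraries, 2, 1, and 0 in the S100A9 EtOH libraries, 4, 5, and 6 in the S100A8 TAM libraries, and 5, 4, and 7 in the S100A9 TAM libraries. Every TAM library was above every EtOH library. The gene for CREM, which encodes activators and repressors of the cAMP response, had 2 and 0 peaks for S100A8 and 2, 0, and 1 for S100A9 in EtOH. In TAM it had 2, 3, and 3 peaks for S100A8 and 5, 4, and 4 for S100A9, and the groups overlapped at 2 peaks. ATF1, the closest relative of CREB1, had 2 and 0 peaks for S100A8 and none in the 3 libraries of S100A9 in EtOH. In TAM, ATF1 had 4, 1, and 1 peaks for S100A8 and 4, 6, and 5 for S100A9, so that some S100A8 TAM libraries were no higher than the first S100A8 EtOH library. CRTC2 had the most peaks of the 10 genes, with 5 and 2 for S100A8 and 4, 1, and 2 for S100A9 in EtOH, and 13, 10, and 5 for S100A8 and 14, 11, and 16 for S100A9 in TAM. Its groups met at 5 peaks, in replicate 1 of S100A8 EtOH and replicate 3 of S100A8 TAM.

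Of the JUN partners, ATF2 had no peak in any of the 5 EtOH libraries, 3, 3, and 1 in the S100A8 TAM libraries, and 2, 2, and 2 in the S100A9 TAM libraries. CREB5, which spans 526.572 kb and is by far the longest of these genes, had 0 and 1 peaks for S100A8 and 1, 0, and 0 for S100A9 in EtOH. In TAM, CREB5 had 10, 6, and 6 peaks for S100A8 and 7, 6, and 11 for S100A9. The groups did not overlap at either gene. Of the stress factors, ATF4 had 3 and 1 peaks for S100A8 and 1, 1, and 1 for S100A9 in EtOH, and 7, 4, and 6 for S100A8 and 4, 4, and 7 for S100A9 in TAM. ATF5 had at most 1 peak per EtOH library, 1, 2, and 2 in the S100A8 TAM libraries, and 4, 3, and 3 in the S100A9 TAM libraries. The groups were apart at ATF4 and overlapped at ATF5. Of the factors made as membrane proteins, ATF6 had 2 and 3 peaks for S100A8 and 3, 0, and 1 for S100A9 in EtOH, and 10, 5, and 5 for S100A8 and 7, 8, and 8 for S100A9 in TAM. CREB3 had 0 and 1 peaks for S100A8 and 1, 0, and 1 for S100A9 in EtOH, and 6, 2, and 3 for S100A8 and 2, 4, and 7 for S100A9 in TAM. Every TAM library was above every EtOH library at both genes.

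**Figure D1:**
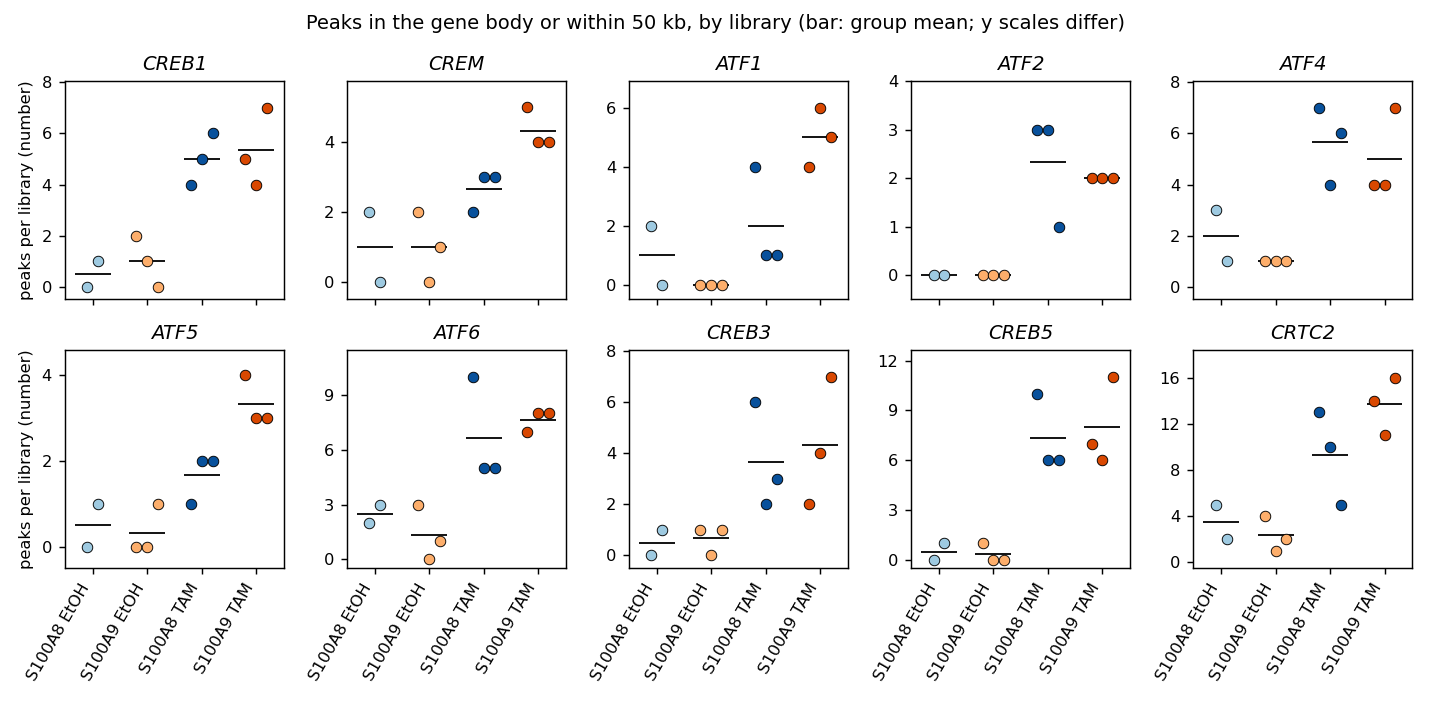
Number of peaks with q of at most 1e-07 in the gene body or within 50 kb (vertical axis, with its own scale per gene) for each library of the 4 groups (horizontal axis), where points are libraries and bars are group means. The TAM points lie above all EtOH points for CREB1, ATF2, ATF4, ATF6, CREB3, and CREB5, and the groups overlap or touch for CREM, ATF1, ATF5, and CRTC2.

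The treatment difference was tested by exact permutation of the treatment labels within each protein, which allows 200 arrangements and a smallest two-sided p of 0.01, with Benjamini-Hochberg adjustment over the 18126 genes that had a peak in at least 2 libraries. Of the 10 genes, 9 passed an adjusted p of 0.05 with more peaks in TAM, and none had more in EtOH. Of all genes tested, 67.6% passed with more peaks in TAM, and the count of 9 is to be read against that share. CREB5 had on average 7.25 more peaks in TAM, ATF6 5.25, CREB1 4.42, ATF4 3.83, CREB3 3.42, and ATF2 2.17, each with an adjusted p of 0.0219 in the exact permutation test. CRTC2 had 8.58 more, CREM 2.50 more, and ATF5 2.08 more, each with an adjusted p of 0.0352 in the same exact test. ATF1 had a mean difference of 3.00 peaks and missed the threshold (exact permutation test, p = 0.04, adjusted p = 0.0553). The TAM libraries lay above all EtOH libraries for 6 of the 10 genes and for 40.2% of all genes tested. The median difference was 3.63 peaks over the 10 genes and 2.42 over all genes tested.

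As another scaling of the lists, each library was cut to the same number of peaks, which by construction holds the mean difference over all genes near 0. When each library was cut to its 1853 peaks of lowest q value, none of the 10 genes passed and none of all genes tested passed with more peaks in TAM (exact permutation test, smallest possible p of 0.01), and CREB1, ATF4, ATF6, CREB5, and CRTC2 had fewer peaks in TAM than in EtOH, by at most 1.42. As a share of all peaks of a library, the peaks at the 10 genes made up 0.152 to 0.389% in EtOH and 0.170 to 0.217% in TAM. The EtOH range contains the TAM range, and its highest values were those of the first S100A9 EtOH library at 0.389% and the first S100A8 EtOH library at 0.324%. The number of genes that passed was 6 without the first S100A9 EtOH library (47.8% of all genes tested) and 9 without the first S100A8 EtOH library (50.4%).

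**Figure D2:**
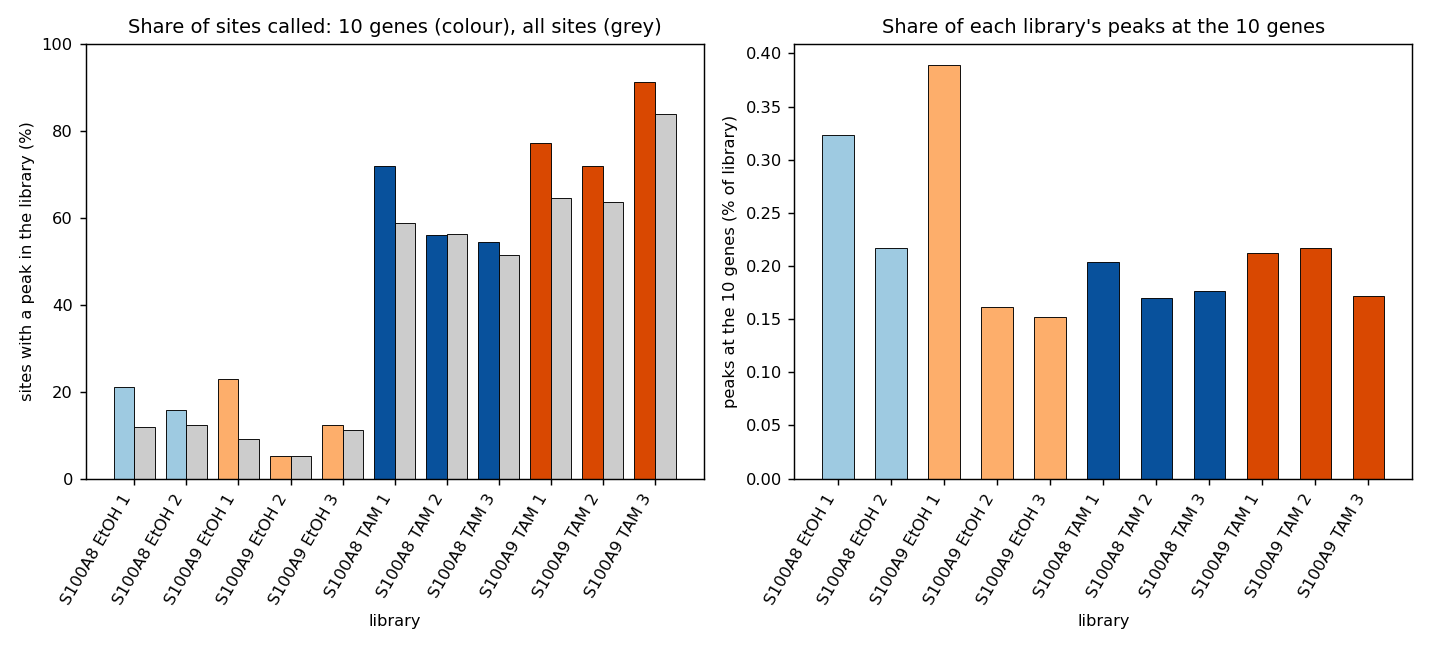
Left, percent of the 57 sites of the 10 genes (colored bars) and of all 30322 sites (grey bars) that had a peak in each library (horizontal axis), and right, peaks at the 10 genes as percent of all peaks of the library. The share of sites called is at most 22.8% in EtOH and at least 54.4% in TAM for the 10 genes, and the grey bars rise alongside. This rise is largely built in, since 8 of the 57 sites met the rule of replicates in an EtOH condition. The share of a library's peaks stays below 0.4% in every library.

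At promoters, defined as 1500 bp upstream to 250 bp downstream of any transcription start site (TSS) of the gene, each of the 10 genes had a peak in at least 3 TAM libraries. CREB1, CREM, ATF6, and CREB3 had a promoter peak in all 6 TAM libraries, ATF4, CREB5, and CRTC2 in 5, ATF1 and ATF2 in 4, and ATF5 in 3. In EtOH, ATF6 and CREB3 had a promoter peak in 3 of 5 libraries, CREB1 and CREM in 2, and ATF1, ATF4, CREB5, and CRTC2 in 1, and ATF2 and ATF5 had none. A promoter peak in all 6 TAM libraries was thus present for 4 of the 10 genes and for 15.4% of all protein-coding genes, and one in at least 1 EtOH library for 8 of the 10 and for 30.6% of all. A promoter call counts once per gene and library over all its TSSs, and these genes have 2 (CREB3) to 44 (CREM) TSSs. The share of libraries with a promoter peak was larger in TAM at all 10 genes, by 0.333 for ATF6 to 0.667 for CREB1, ATF2, and CRTC2. With the 1853 top peaks per library it was smaller in TAM at CREB1, with a difference of -0.17, and the same in both treatments at ATF1, ATF2, ATF5, CREB5, and CRTC2. With every peak as deposited it was the same in both treatments at CREM and CREB3. No gene passed the exact permutation test, with p between 0.10 and 0.40 and adjusted p between 0.304 and 0.539, and 0% of the 11286 genes tested passed with more calls in TAM. Without adjustment, 2461 of them had a p under 0.05 in this exact test, none of the 10 among them. The smallest possible p of this exact test is 0.01, and the 630 genes that reached it had an adjusted p of 0.179. No gene could therefore pass, whatever its calls, and the 0% is no result about these genes.

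Merging the peaks of replicates gave 30322 sites, of which 57 belonged to the 10 genes, and CRTC2 had 13, ATF6 and CREB5 8 each, ATF1 6, ATF4 5, CREB1, CREM, and CREB3 4 each, ATF5 3, and ATF2 2. Of the 57 sites, 12 lay at a promoter of their own gene and 31 (54.4%) at a promoter of some protein-coding gene, compared with 34.3% of all sites. Nearly all of the 13 CRTC2 sites were among the 31, in a window that holds 10 other genes, so this locus weighs on the share. For 25 sites the nearest TSS was that of the gene itself, and for the other 32 it was that of a neighbor. The 25 include all 6 sites of ATF1 and all 8 of CREB5, but 2 of the 13 of CRTC2. In the annotation, 41 summits lay outside the gene body, 11 in introns, 3 in untranslated regions, 1 in a coding exon, and 1 in an exon of a noncoding transcript. Counting only peaks whose nearest TSS was the gene's own left a difference of 7.25 peaks at CREB5 and 3.00 at ATF1, but 0.50 at ATF6 and 0.33 at CREB3. Under that count, which was added after the values were seen, 0 of the 10 genes passed, and 0 of all genes passed with more peaks in TAM (exact permutation test). With a smallest possible p of 0.01, a gene passes the adjustment only when many genes have small p values. CREB5 kept its difference of 7.25 and did not pass, so this 0 does not show that a difference was lost.

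**Figure D3:**
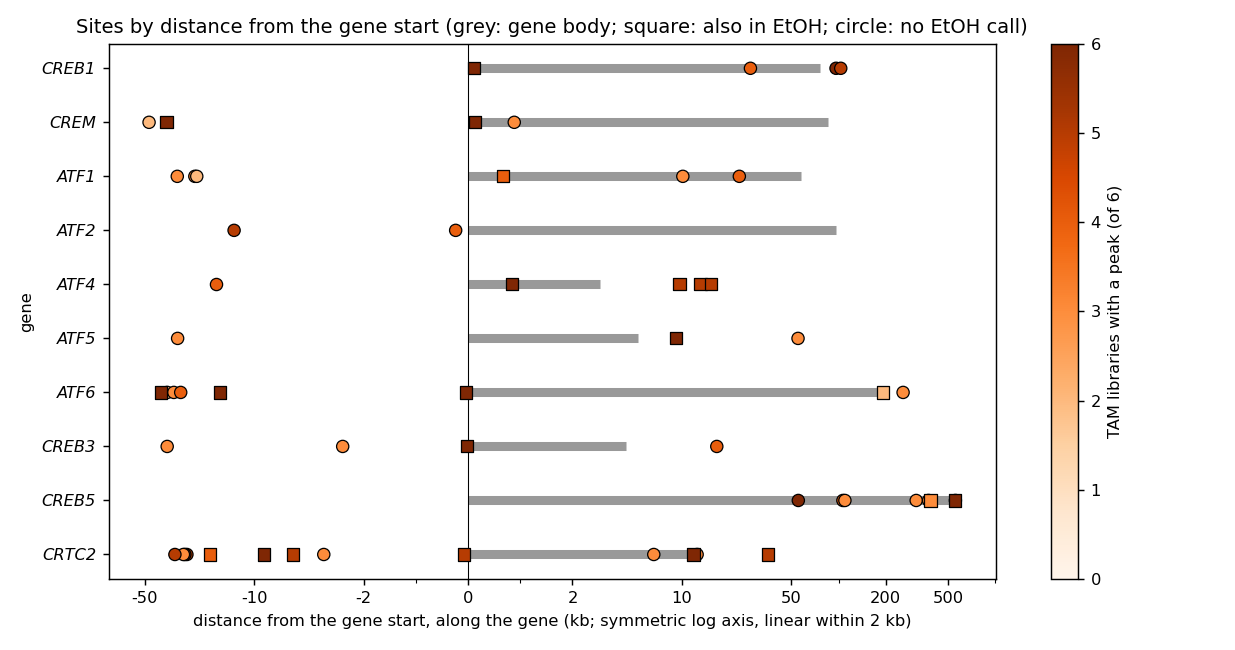
Sites of the 10 genes (vertical axis) by distance of the summit from the gene start in kb (horizontal axis, symmetric log scale that is linear within 2 kb), colored by the number of TAM libraries with a peak. Grey bars are gene bodies, squares are sites with a peak in at least 1 EtOH library, and circles are sites with none. A square lies within 1 kb of the start of CREB1, CREM, ATF1, ATF4, ATF6, CREB3, and CRTC2, and none does for ATF2, ATF5, and CREB5.

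Most sites were called in TAM only, as in the series as a whole. This follows in large part from how sites were defined. Only 8 of the 57 sites and 2207 of all 30322 met the rule of replicates in an EtOH condition. The others became sites through the TAM libraries alone. No EtOH library called 35 of the 57 sites (61.4%, compared with 68.9% of all sites). Of these 35, 15 had a weaker EtOH peak in the deposited lists, which reach down to q = 0.05. That is 42.9%, compared with 49.7% of all sites without an EtOH call. No EtOH peak of any strength was present at 20 of the 57 (35.1%, compared with 34.7% of all sites). All 6 TAM libraries called 15 sites (26.3%, compared with 14.3% of all). None of the 57 was called in all 11 libraries, compared with 105 of all 30322 sites. Of the 57 sites, 4 met the rule of replicates for S100A8 in EtOH (7.02%, compared with 4.01% of all sites) and 5 for S100A9 in EtOH (8.77%, compared with 4.54%). In TAM, 36 did for S100A8 (63.2%, compared with 60.1%) and 52 for S100A9 (91.2%, compared with 82.3%). The sites with the most EtOH calls were CRTC2 site 8 at the promoter of CREB3L4 and ATF4 site 3, each with 4 of 5 EtOH libraries.

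**Figure D4:**
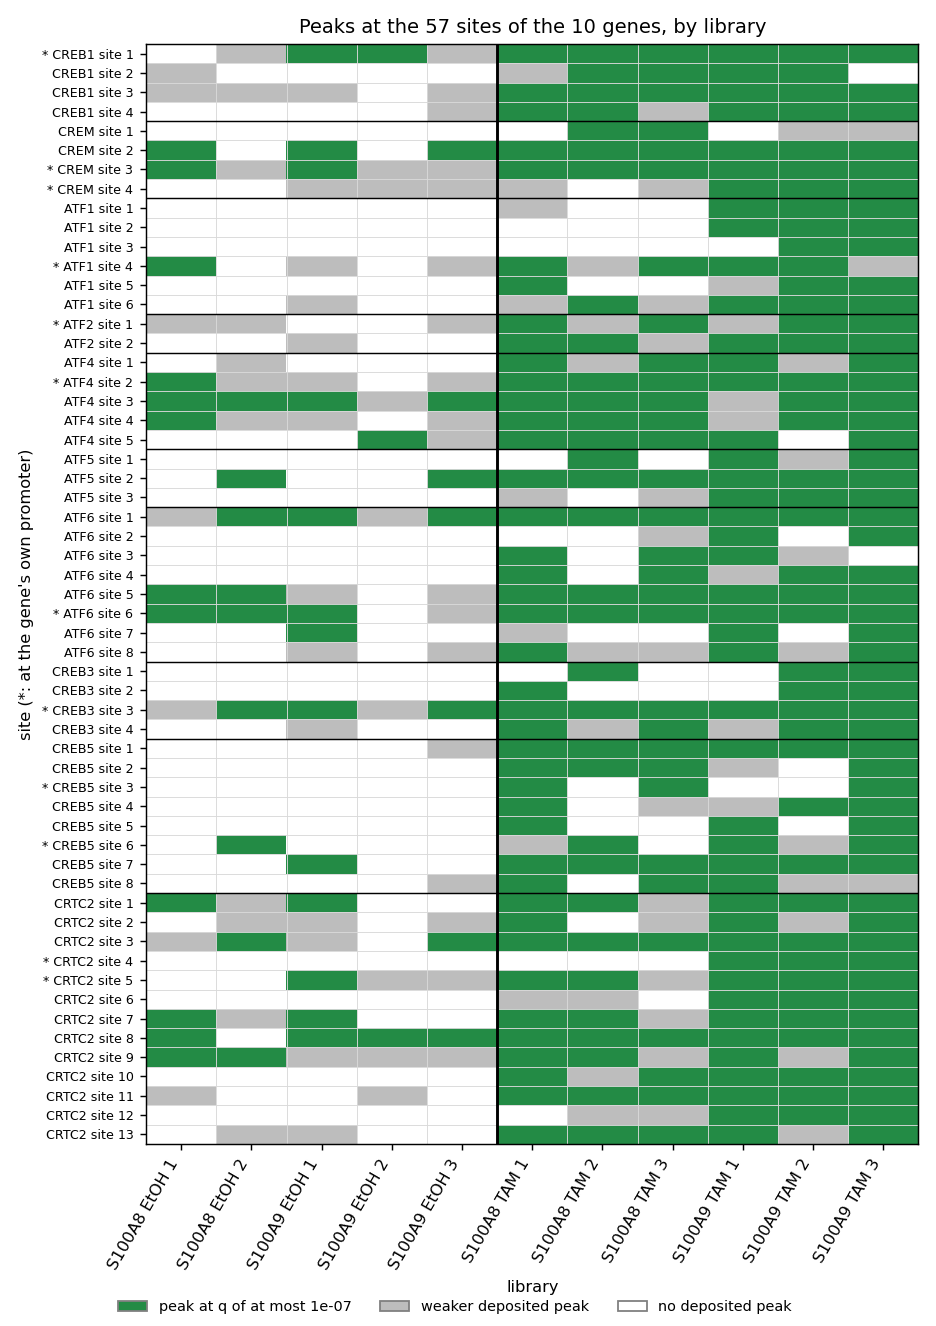
Peaks at each of the 57 sites (rows, by gene, with a star for sites at the gene's own promoter) in each library (columns), where green is a peak with q of at most 1e-07, grey a weaker deposited peak, and white no peak in the list. Green cells fill most of the 6 TAM columns and few of the 5 EtOH columns, and 20 sites have white cells in all EtOH columns. Most rows became sites through TAM libraries alone, so this contrast is largely built in.

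Fold enrichment is the height of a peak over the input of its own library. It is listed for each library, at some sites also as a percentile among the peaks of that library. Depth is unknown, and differences in height between libraries were not tested. The CREB1 promoter site (chr2:208394115-208395053) has its summit in an untranslated region, 106 bp from the gene start. Its fold enrichment was 7.05 and 9.26 in the first and second S100A9 EtOH libraries, 7.34, 6.57, and 8.81 in S100A8 TAM, and 6.53, 9.57, and 9.69 in S100A9 TAM. CREM site 3 (chr10:35415316-35416257), 132 bp from the gene start, had 8.59 in the first S100A8 EtOH library, 8.72 in the first S100A9 EtOH library, 10.4, 12.9, and 5.98 in S100A8 TAM, and 13.9, 5.35, and 10.5 in S100A9 TAM. The other libraries had no peak past the threshold at these sites. CREM site 4 (chr10:35416376-35416756) has its summit in an intron, 199 bp downstream of a TSS, and was called only in the 3 S100A9 TAM libraries, at 7.03, 7.18, and 7.76. The 3 S100A9 EtOH libraries held weaker peaks there, at 7.02, 6.44, and 4.19, and the first narrowly missed the threshold with a −log10 q of 6.46. ATF1 site 4 (chr12:51157532-51158607), with a KLF/SP1 match, was called in the first S100A8 EtOH library and in 4 TAM libraries, at 6.78 to 10.3 in TAM.

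CRTC2 site 5 (chr1:153930272-153931306), 83 bp upstream of the gene start, had 9.23 in the first S100A9 EtOH library, 7.98 and 8.22 in the first and second S100A8 TAM libraries, and 14.7, 9.65, and 8.99 in S100A9 TAM. CRTC2 site 4 (chr1:153924394-153924590) is at an internal TSS and was called in the 3 S100A9 TAM libraries alone, at 8.04, 9.75, and 11.2, with no peak of any strength in the other libraries. ATF2 site 1 (chr2:176032688-176033572), 237 bp upstream of the gene start, had 12.7 and 7.43 in replicates 1 and 3 of S100A8 TAM and 9.28 and 4.50 in replicates 2 and 3 of S100A9 TAM. ATF2 had no called peak in EtOH, yet 3 EtOH libraries held a weaker one at this site, with fold enrichments of 6.39, 6.91, and 6.92. The CREB5 promoter sites were at internal TSSs, and 1 library, replicate 3 of S100A9 TAM, also had a peak 240 bp upstream of the gene start (fold enrichment 8.04) that formed no site. CREB5 site 3 (chr7:28448621-28448825) had 8.56 and 6.20 in replicates 1 and 3 of S100A8 TAM and 11.3 in replicate 3 of S100A9 TAM, and no EtOH library held a peak there. CREB5 site 6 (chr7:28725427-28725973) had 8.49 in the second S100A8 EtOH library and 6.88 to 11.1 in 3 TAM libraries.

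ATF4 site 2 (chr22:39915338-39917280) was the widest site of the 10 genes at 1943 bp and covers much of a gene of 2.989 kb. Its fold enrichment was 8.59 in the first S100A8 EtOH library, 9.17, 8.48, and 6.92 in S100A8 TAM, and 14.2, 10.3, and 6.89 in S100A9 TAM. CREB3 site 3 (chr9:35732099-35732782), 28 bp upstream of the gene start, had 7.87, 7.64, and 9.17 in 3 EtOH libraries, 18.2, 6.64, and 7.70 in S100A8 TAM, and 18.2, 7.03, and 8.37 in S100A9 TAM. In the first TAM replicate of each protein it stood at percentiles 99.5 and 99.3, and in the other TAM libraries between 14.6 and 63.4. ATF6 site 6 (chr1:161735907-161736305), 46 bp upstream of the gene start, had 7.10 and 12.5 in S100A8 EtOH, 6.61 in the first S100A9 EtOH library, 6.12, 4.38, and 10.1 in S100A8 TAM, and 17.8, 16.1, and 14.5 in S100A9 TAM. It stood at percentiles 99.2, 97.4, and 96.8 in the S100A9 TAM libraries and at 8.21, 0.365, and 82.3 in the S100A8 TAM libraries. The S100A8 TAM peaks had −log10 q values of 19.3, 10.9, and 25.2, above the threshold of 7 and below each S100A9 TAM value. In replicate 1 of S100A8 TAM, ATF2 site 1 had a similar −log10 q of 19.4 at a fold enrichment of 12.7. A low percentile of fold enrichment thus did not mean a weak q value. These values were singled out after they were seen, the lists differ in length, and the difference between the proteins was not tested.

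**Figure D5:**
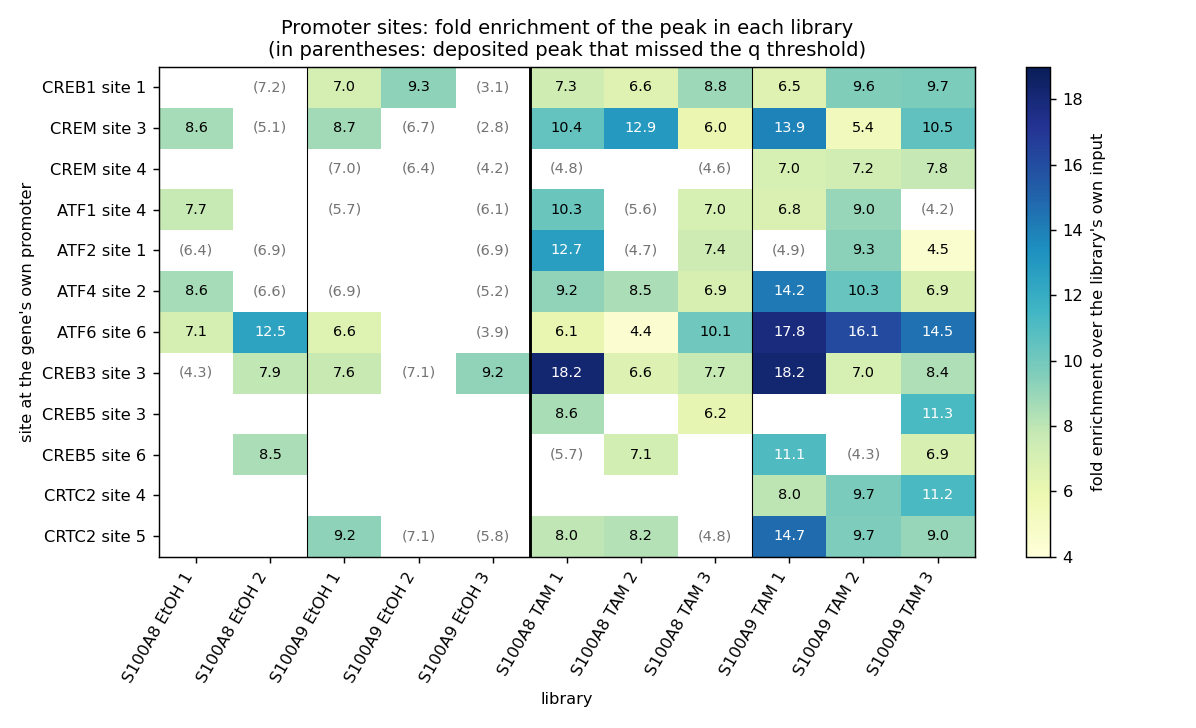
Fold enrichment over the library's own input (color and number) of the peak at each of the 12 sites at the genes' own promoters (rows) in each library (columns), with weaker deposited peaks in grey parentheses and blank cells where the list has no peak. ATF6 site 6 reads 14.5 to 17.8 in the 3 S100A9 TAM libraries, and CREB5 site 3 and CRTC2 site 4 have no entry in EtOH.

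ATF5 was the exception among promoters. It had promoter peaks in replicate 3 of S100A8 TAM and replicates 1 and 2 of S100A9 TAM, and these did not form a site by the rule of replicates. Its leading site, ATF5 site 2 (chr19:50440849-50441241), lies outside the gene, 9142 bp from the gene start. It was called in all 6 TAM libraries, with 16.1, 13.3, and 12.0 in S100A8 and 10.7, 6.97, and 8.68 in S100A9, and in 2 EtOH libraries, with 8.49 and 7.73. This is the site with the CTCF consensus shown above, which was centered 14.5 bp upstream of the summit. At the other genes, the site outside the own promoters that was called in the most libraries for that gene was often at a neighbor. CREM site 2 lies 3 bp from a TSS of CUL2 and was called in 3 EtOH and 6 TAM libraries, ATF2 site 2 lies 96 bp from that of ATP5MC3 (0 and 5), CREB1 site 3 lies 117 bp from that of METTL21A (0 and 6), CREB3 site 4 lies 1 bp from that of RGP1 (0 and 4), and CRTC2 site 8 lies 301 bp from that of CREB3L4 (4 and 6). ATF4 site 3 is nearest to RPS19BP1 at 2750 bp (4 and 5), and ATF6 site 1 to FCRLB at 1134 bp (3 and 6). ATF1 site 6, in an intron 23246 bp from the gene start, had a peak in 4 libraries, all of them TAM. CREB5 site 7 (chr7:28893567-28894152), beyond the gene end and 44973 bp from the nearest TSS, was called in all 6 TAM libraries at 7.58 to 15.1 and in the first S100A9 EtOH library at 11.6.

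At their own promoters, 9 of the 10 genes had a site in TAM for S100A8 and the same 9, all but ATF5, had one for S100A9, compared with 36.2% of all protein-coding genes for S100A8, 43.6% for S100A9, and 31.0% for both. At CREB5 these were different sites, site 3 for S100A8 and site 6 for S100A9. In EtOH, ATF6 had one for S100A8 and CREB3 for S100A9, compared with 4.40 and 5.13% of all genes. Of the 57 sites, 31 met the rule of replicates for both proteins in TAM (54.4%, compared with 42.8% of all sites), 21 for S100A9 and not S100A8 (36.8%, compared with 39.5%), and 5 for S100A8 and not S100A9 (8.77%, compared with 17.4%). The mean number of peaks differed between the proteins, S100A9 minus S100A8 within treatments, by -0.83 for ATF4 to 1.58 for CRTC2. No gene passed the exact permutation test of the protein labels, with p between 0.21 and 1 and an adjusted p of 1 for each, and 0% of all genes tested passed with more peaks for S100A9. Without adjustment, 130 of 18126 genes had a p under 0.05 in that exact test. Only 20 reached its smallest possible p of 0.01, too few for any gene to pass the adjustment, so the 0% does not show that the proteins are alike. The treatment difference itself was larger for S100A9 by 5.50 peaks at CRTC2 (exact permutation test, p = 0.12, adjusted p = 1) and by 4.00 at ATF1 (p = 0.08, adjusted p = 1, same exact test). These are the largest values of the 10 genes, and the value was -0.33 at ATF2 and -0.17 at CREB1. Of all 18126 genes, 0 passed this exact test, and 387 had an unadjusted p under 0.05, too few for any to pass the adjustment.

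Site by site, 7 of the 57 sites (12.3%) were called in all 3 S100A9 TAM libraries and in no S100A8 TAM library, compared with 3.21% of all sites. They are CREM site 4, ATF1 sites 1 and 2, ATF5 site 3, and CRTC2 sites 4, 6, and 12. At 5 of the 7, at least 1 S100A8 TAM library held a weaker deposited peak, and at ATF1 site 2 and CRTC2 site 4 none did. No site was called in all 3 S100A8 TAM libraries and in no S100A9 TAM library, compared with 0.587% of all sites. Replicate 3 of S100A9 TAM had the most peaks of all libraries, 40735, and called 91.2% of the 57 sites, compared with 84.0% of all sites. Leaving it out reduced the number of sites of these genes from 57 to 46.

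The CRE was not found within 100 bp of any of the 57 summits, compared with 1.20% of all 30322 sites that have one. The shorter TGACG element was found at 12 of the 57 (21.1%, compared with 18.5% of all sites) and the AP-1 site at 14 (24.6%, compared with 25.9%). As shown above, the ATF6 promoter summit has a TGACG match on either side, and the CREB3 promoter has 1. The ETS site was found at 11 of the 57 sites (19.3%, compared with 13.3% of all sites), the KLF/SP1 site at 6 (10.5%, compared with 10.6%), and the C/EBP-ATF element at CREB5 site 2 alone (1.75%, compared with 1.65%). Since more of the 57 sites lie at promoters, shares were also compared within each class. At promoters, the AP-1 site was found at 5 of 31 sites (16.1%, compared with 8.38% of all promoter sites), the TGACG element at 6 (19.4%, compared with 26.6%), the ETS site at 9 (29.0%, compared with 25.4%), and the KLF/SP1 site at 5 (16.1%, compared with 23.4%). The 5 AP-1 matches were at CREM site 4, CREB5 site 3, and CRTC2 sites 4, 10, and 12, of which sites 10 and 12 lay at the promoter of RAB13. Away from promoters, the AP-1 site was found at 9 of 26 sites (34.6%, compared with 35.0%), the TGACG element at 6 (23.1%, compared with 14.3%), the ETS site at 2 (7.69%, compared with 6.91%), and the KLF/SP1 site at 1 (3.85%, compared with 3.97%). The AP-1 site was found at 4 of the 8 CREB5 sites and 3 of the 6 ATF1 sites, and at none of the sites of ATF2, ATF4, ATF5, and CREB3. The CTCF consensus was found at 5 of the 57 (8.77%, compared with 11.1% of all sites), among them 2 of the 3 ATF5 sites. The matches are descriptions of these letters in the reference and do not show which factor was bound.

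A CRE was present in the promoter windows of 2 of the 10 genes, CREM and CREB5, and of 1276 of all 20098 genes (6.35%). The CREM match (chr10:35484780-35484787) starts 13 bp upstream of an internal TSS, 69061 bp into the gene. The internal promoter of CREM is known as the start of ICER, a short cAMP-induced repressor made from the same gene. In the lists as deposited, peaks covered this CRE in all 3 S100A9 TAM libraries, with summits 54 bp upstream of the first base of the CRE and 2 and 0 bp downstream of it. Their fold enrichments were 4.81, 7.52, and 4.96 and their −log10 q values 3.66, 10.3, and 5.87, so that only the second library passed the threshold of 7. The first S100A8 TAM library held a peak with its summit 51 bp downstream that did not cover the CRE, at a −log10 q of 4.79, and no EtOH library held a peak within 500 bp. Separate peaks were listed downstream of the CRE, with summits at 317 bp in the first S100A9 TAM library, 328 bp in the first S100A8 TAM library, and 335 bp in replicate 3 of S100A9 TAM, and −log10 q values of 7.13, 4.08, and 6.61. The internal CREM promoter thus had a peak past the threshold in 2 S100A9 TAM replicates, at positions that did not overlap, and these formed no site. The CREB5 match (chr7:28448927-28448934) starts 27 bp upstream of an internal TSS, and only replicate 3 of S100A9 TAM had a peak that covered it, with the summit 208 bp upstream. The summits of CREB5 site 3 in the other libraries lay 230 and 243 bp upstream of the CRE.

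The other genes of the circuit were read from lists of the pathway. Of 14 other CREB and ATF factor genes, 13 had more peaks in TAM, as did 13 of 14 genes of cAMP inputs and coactivators, 8 of 10 known CREB target genes, 12 of 16 genes of the ATF4 branch, and 9 of 10 of the ATF6 branch, each by the exact permutation test with adjustment over all genes and against the 67.6% of all genes. None had more in EtOH. The median differences of these lists were 3.29, 2.79, 3.83, 3.00, and 2.46 peaks. DUSP1, a phosphatase gene induced by CREB, rose from a mean of 3.20 peaks in EtOH to 17.3 in TAM and had a promoter peak in all 11 libraries. The latter held for 1.04% of the 11286 genes with a promoter peak in at least 2 libraries. The genes named here were those with promoter peaks in the most libraries of their lists, apart from 4 that are named only for sharing the pattern of MBTPS1. ATF3, a stress-induced repressor of the family, had a promoter peak in 10 libraries and rose from 1.80 to 7.83 peaks. CREB3L4, whose window overlaps that of CRTC2, had a promoter peak in 10 libraries, and TRIB3, a target of ATF4 that inhibits it, also in 10. Of the ATF6 branch, DNAJC3, a chaperone of the endoplasmic reticulum, had a promoter peak in 9 libraries, and PDIA4 had one in 8. MBTPS1, the protease that makes the initial cut in ATF6, had one in all 6 TAM and in 0 of 5 EtOH libraries. XBP1 of the same list had the same pattern, as did CREBZF, BATF3, and PER1 of other lists. Of the coactivators, EP300, an acetyltransferase that CREB recruits, had a promoter peak in 2 EtOH and 6 TAM libraries.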

How the data were processed

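ChIP libraries were described as peak lists, 1 per library. The authors aligned reads to hg19 with Bowtie2, kept unique alignments, and called peaks with MACS2 against the matching input, without pooling replicates; tool versions are not given in the sources used here. The deposited fold enrichment is a ratio over that input. The p-value and q-value of each peak were deposited as −log10. Summits are offsets from the peak start.

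From these lists, peaks of the autosomes and X with a −log10 q of at least 7 were assigned to genes (GENCODE 44, any TSS) by summit. Sites are merged peaks (overlap of at least 1 bp) in at least 2 replicates of a condition. Percentiles rank fold enrichment within a library. Tests were exact permutations of library labels within protein or treatment, with Benjamini-Hochberg adjustment over all genes with a value in at least 2 libraries, tested on simulated data (Python 3.11.15, numpy 2.4.6, pandas 2.3.3). The members, gene lists, tests, and rules were chosen with earlier results of these data known. All 10 members are named, and of each other list the 3 genes with promoter peaks in the most libraries were eligible. XBP1, CREBZF, BATF3, and PER1 were named outside this rule, after their values were seen. Sites are named if at a member's promoter or, elsewhere, called in the most libraries per member; others were chosen after their values were seen. Depth is unknown. Pol II and input libraries were not used here. Alternatives were other q thresholds, equal list sizes, other windows, TSS sets, replicate and overlap rules, single libraries left out, and a replicate block.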

Additional observations from a re-analysis of the deposited data

How the results depend on the processing

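The 9 genes with more peaks in TAM (67.6% of all genes) became 0 of 10 (0%) with the 1853 top peaks per library, where the difference turned to -0.17 at CREB1, ATF6, and CREB5, -0.083 at ATF4, and -1.42 at CRTC2. The count was 2 of 10 (CREB1 and CREB5, 23.05% of all genes) with windows of the gene body and 10 kb and 0 (0%) with the gene body alone, where CREB3 turned to -0.17, and 0 (0%) with peaks nearest to the gene's own TSS, a count chosen after seeing the data. It was 10 with every peak as deposited (71.9%) and 9 with q of at most 1e-10 (40.6%). Leaving out 1 library gave 6 to 9 (46.4 to 53.0%). With all 11 libraries, the smallest possible p of this exact test is 0.01. A gene thus passes the adjustment only when many genes have small p values. Where 0% of all genes passed, the count of 0 does not by itself show that a difference was lost. Promoter and protein differences called 0 genes under every alternative run, also without any 1 library. In the main run neither test could call any gene after adjustment, so these counts of 0 do not show that there was no difference. With the replicate block, 0 genes passed any of the 3 tests because its smallest possible p is 0.0625, and same-numbered libraries showed no pairing (correlations from -0.0222 to 0.0107). The genes had 57 sites, 106 with at least 1 replicate required, 35 with every replicate, 61 with overlap of 0.5 of the shorter region, and 46 to 57 without 1 library. The absence of a CRE within 50 bp follows from its absence within 100 bp and is no separate check. The CTCF consensus, tried in place of the CRE after the data were seen, was found at 5 sites. For all differences, the cause was not tested, apart from the smaller number of peaks or windows that the alternative itself imposes. Peak lists without read numbers limit all of these values, since an absent peak is not an absence of binding.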
